A study of Mus musculus with 6 samples.

Results

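Endothelial cells of B16-F10 melanoma tumors were described here as they were recovered, at low number, in single-cell RNA-seq libraries made from immune cells. A barcode was taken as endothelial when it held at least 3 unique molecular identifiers (UMIs) of Cdh5, Kdr and Egfl7 together, no UMI of the leukocyte gene Ptprc (CD45), under 10 UMIs of the melanoma genes Pmel, Mlana, Dct and Tyrp1 together, and under 10 UMIs of the fibroblast genes Col1a1, Col1a2, Col3a1 and Dcn together. Barcodes also needed at least 600 genes and at most 10% mitochondrial UMIs. The rule found 93 endothelial cells among 38294 barcodes within these limits and 52899 barcodes in all. Since those 12 genes chose the cells, their levels are given as a description and were not tested.

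The tumors of all 6 samples grew from B16-F10 cells, a pigmented mouse melanoma line, in female C57BL/6 mice of 6 to 10 weeks, and all mice were given an antibody against PD-1 (αPD-1) at 150 μg, 3 times a week from day 7. In 3 samples the antibody was given with the vehicle, 5% DMSO in PBS (αPD-1), and in 3 samples with corin at 200 μg daily from day 6 (αPD-1 + corin). Corin is a small molecule that inhibits the CoREST complex, a chromatin repressor that joins the demethylase LSD1 with histone deacetylase 1. There was no group without αPD-1, so every comparison concerned corin added to αPD-1. Treatment groups held 10 mice each, and the labels state neither which of them gave these samples nor whether a sample held 1 tumor or a pool, so p-values measured only the spread between these samples. Tumors had been digested and frozen, dead cells were removed after thawing, and CD45+ cells were captured on beads. Endothelial cells lack CD45, so those counted here had passed through the capture, and their number was not the endothelial content of the tumors.

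Endothelial cells line blood and lymphatic vessels. In tumors, sprouting is led by tip cells, which respond to VEGF and express Dll4, Esm1, Apln and Angpt2, while capillary, arterial and venous cells carry their own sets of transporters, junction proteins and adhesion molecules. Tumor endothelium is known for its leaky, irregular vessels and for controlling how leukocytes enter, through adhesion molecules, chemokines and antigen presentation.

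The αPD-1 samples gave 10, 9 and 26 endothelial cells and the αPD-1 + corin samples 23, 10 and 15, with values listed throughout in the order of replicates 1, 2 and 3. Their summed UMIs ranged from 74781 to 231386 per sample, against 52281422 to 84276739 UMIs in whole libraries, so the small number of cells limited precision more than library depth did. The median endothelial cell held 6297 UMIs and 2681 genes. Median UMIs per cell were 8526, 8682 and 6195 under αPD-1 alone and 5023, 9074 and 6829 under αPD-1 + corin (exact permutation test, two-sided, p = 0.7). In αPD-1 replicate 1, 1 cell supplied 33.8% of the UMIs, and in the other samples the largest cell supplied between 11.6% and 20.9%. The median mitochondrial share was higher in αPD-1 replicate 2, at 5.51%, than in the other samples, at 2.12% to 2.58%, and did not overlap between the groups (exact p = 0.1, the smallest that 3 against 3 samples allow). None of the 93 barcodes occurred in another library, and none was among the top doublet scores of Scrublet.

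The label was checked with Pecam1 (CD31, a junction protein that the rule did not use; chr11:106543689-106641454, GRCm39), which 88 of the 93 cells held. Of the genes that chose the cells, given as a description and no check, 88 cells held Cdh5 (VE-cadherin; chr8:104828231-104871143), 85 held Kdr (the main VEGF receptor; chr5:76093487-76139884) and 92 held Egfl7 (a secreted vascular protein; chr2:26468286-26486789). The level of Pecam1 was 1296, 883 and 1150 CPM (UMIs scaled to 1000000 endothelial UMIs per sample) under αPD-1 alone and 1230, 1090 and 1000 CPM under αPD-1 + corin, so all samples lay close together. Fibroblasts and melanoma cells of the same libraries, chosen by rules of the same kind, held Pecam1 at group levels of 1.5 to 11.1 CPM. All 28 genes of a pan-endothelial list had UMIs. Flt1, the decoy VEGF receptor, reached 1337 to 1798 CPM across samples. Plvap, which spans the diaphragms of fenestrae and caveolae, reached 1324 to 3140 CPM, and Eng, a TGF-β co-receptor, was found in 86 cells.

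The genes with the largest ratio to every other class outside the fixed lists included several found in all 6 samples. Cdh13 (T-cadherin) stood at 712 to 1704 CPM. Depp1 stood at 480 to 730 CPM under αPD-1 alone and at 77.4 to 273 CPM under αPD-1 + corin (log2 fold change −1.59, edgeR adjusted p = 0.215). Cyyr1 stood at 294 to 518.5 CPM against 534 to 704 CPM (log2 fold change 0.44, edgeR adjusted p = 0.63). Both were free of overlap, beside 17.2% of all genes tested. Lists of other cell types were present in part. Of 14 macrophage genes 11 had UMIs, of 9 B cell genes 6, of 12 fibroblast genes 8 and of 5 red cell genes 0. Among those at 0 UMIs in all 93 cells were C1qa, C1qc and Adgre1 of macrophages, Ms4a1 and Cd79b of B cells, and Lum and Pdgfra of fibroblasts. With cells thinned to 2000 UMIs, at least 2 UMIs of the B cell list were held by 28 of 87 cells (32.2%), of the fibroblast list by 8 (9.20%) and of the macrophage list by 4 (4.60%). In the B cell list Ebf1, a transcription factor that fibroblasts held at 1241 and 740 CPM as well, was found in 78 cells, and no other gene of it in more than 2. The fibroblast list was led by Postn, in 11 cells, and the rule itself limited 4 of its genes. The summed macrophage list ran from 0 to 138 CPM under αPD-1 alone and from 132 to 379 CPM under αPD-1 + corin, with Apoe in 20 cells, and the T cell list stayed at or under 19.2 CPM in every sample. Of the Lyz2 UMIs within the macrophage list, 85.2% came from 1 cell of αPD-1 + corin replicate 3. The summed melanoma list stayed between 28.8 and 121 CPM.

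**Figure D1:**
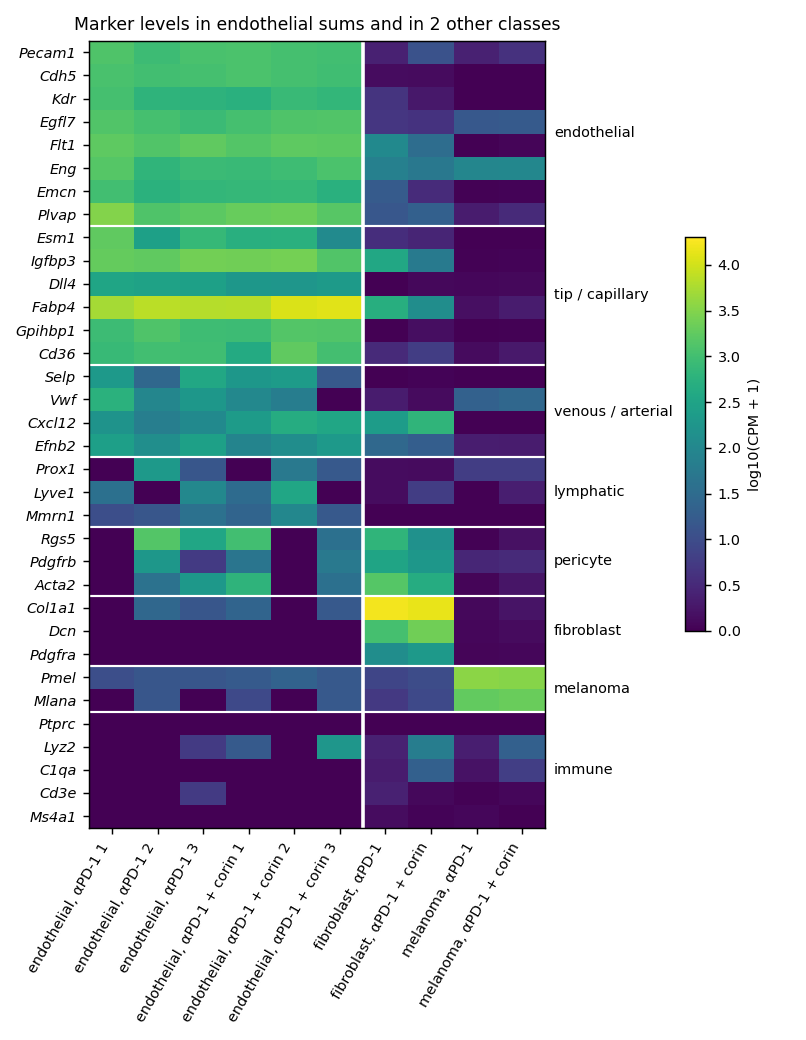
Levels of marker genes, as log10 of CPM + 1, in the endothelial sums of the 6 samples (left columns) and in fibroblasts and melanoma cells pooled by treatment group (right columns). Pecam1 lies between 883 and 1296 CPM in each endothelial sum and at 11.1 CPM or lower in the other classes, while Rgs5 and other pericyte genes appear in only some samples.

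Among barcodes within the limits, 791 held at least 3 UMIs of the endothelial genes, and 139 of these were left out for Ptprc, 579 for melanoma genes and 73 for fibroblast genes, in counts that overlap. The 579 with melanoma genes were large barcodes, with a median of 48665 UMIs, and 87.8% of their endothelial UMIs were Egfl7 alone, against 38.8% in the members. Only 20 of them held both Cdh5 and Kdr. Just inside the threshold lay 7 members with 3 or 4 endothelial UMIs, of which 6 held Pecam1. Just outside, with 2 endothelial UMIs, lay 10 barcodes, of which 5 held Pecam1, with a median of 1153 genes against 1744 in those inside. Most members were far from the threshold, since 68 of 93 held at least 10 endothelial UMIs, with a median of 18 and a maximum of 124.

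To compare endothelial programs at equal depth, each cell was thinned to 2000 UMIs, which left out 6 cells (1, 0 and 2 under αPD-1 alone, 3, 0 and 0 under αPD-1 + corin) and kept 87. A cell was counted for a program when it held at least 2 UMIs of its list, so these shares are ranges cut from a count and not cell types. The capillary list, which holds the lipid-handling genes Fabp4, Cd36 and Gpihbp1, was met by 82 of 87 cells (94.3%), against 22.1% of fibroblasts and 0.430% of melanoma cells thinned in the same way (700 fibroblasts and 1164 melanoma cells, at most 200 per sample). The tip cell list was met by 67 cells (77.0%), against 29.1% of fibroblasts and 4.04% of melanoma cells. Both lists were met by 64 cells, the capillary list alone by 18, the tip cell list alone by 3 and neither by 2, an overlap that the near-universal capillary list largely fixed. The venous list was met by 47 cells (54.0%), and 30 of these also met the tip cell list. The arterial list was met by 30 cells (34.5%), against 28.0% of fibroblasts and 9.88% of melanoma cells. Fibroblasts held arterial genes of their own, such as Cxcl12, so their share is no background level for this list.

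Fabp4, a fatty acid-binding protein of capillary endothelium, was the most abundant of these genes. Its level was 5290, 7034 and 6604 CPM under αPD-1 alone and 6815, 11414 and 12769 CPM under αPD-1 + corin, and it was found in 88 cells. Igfbp3, a secreted binding protein of insulin-like growth factors, was found in 57 cells at 1363 to 2546 CPM. Esm1 (endocan), a tip cell proteoglycan, was less even, at 1795, 281 and 756 CPM under αPD-1 alone and 518, 529 and 114 CPM under αPD-1 + corin, and 29.96% of its UMIs came from 1 cell. The 30 thinned cells with an Esm1 UMI came from all samples (4, 3 and 8 and 9, 3 and 3 cells). They held a mean of 8.0 Igfbp3 UMIs per cell against 1.84 in the 57 cells without Esm1, higher in 6 of 6 samples, and Apln was found in 13 of 30 against 7 of 57. Fabp4 stood at 13.7 UMIs per cell in the cells with Esm1 and at 18.8 in the others, lower in 4 of 6 samples. These are descriptions over cells that share libraries, with no test.

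Cell cycle genes marked about as many endothelial cells as arterial genes did. After thinning, 30 of 87 cells (34.5%) met the cell cycle list, against 21.9% of fibroblasts and 59.5% of melanoma cells. These were 4 of 9, 3 of 9 and 5 of 24 cells under αPD-1 alone and 10 of 20, 4 of 10 and 4 of 15 cells under αPD-1 + corin, so the groups overlapped (32.9% ± 11.8 against 38.9% ± 11.7, mean ± SD, n = 3 each, exact permutation test, p = 0.6). Cells that met the tip cell list met the cell cycle list in 25 of 67 cases and the others in 5 of 20. Mki67, a marker of proliferating cells, was found in 25 cells at 93.6 to 237 CPM.

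Lymphatic cells were few. Before thinning, 6 cells, 1 in each sample, held at least 3 UMIs of Prox1, Lyve1, Mmrn1, Ccl21a and Reln together. Prox1, the transcription factor that sets lymphatic identity, was found in 4 of them, Lyve1 in 4 and Mmrn1 in 5. The median depth of these 6 cells was 4989 UMIs against 6762 in the others. After thinning, 6.90% of endothelial cells met the whole lymphatic list, which also holds Flt4, Itga9 and Pdpn, so it is a different measure. That list was met by 13.9% of fibroblasts, which held Pdpn at 131 and 347 CPM, and by 1.38% of melanoma cells. Prox1 was found in 0.143% of fibroblasts. No thinned cell met the list of high endothelial venules, the specialized vessels through which lymphocytes enter lymph nodes. Madcam1, an addressin of such vessels, had UMIs in 4 cells.

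**Figure D2:**
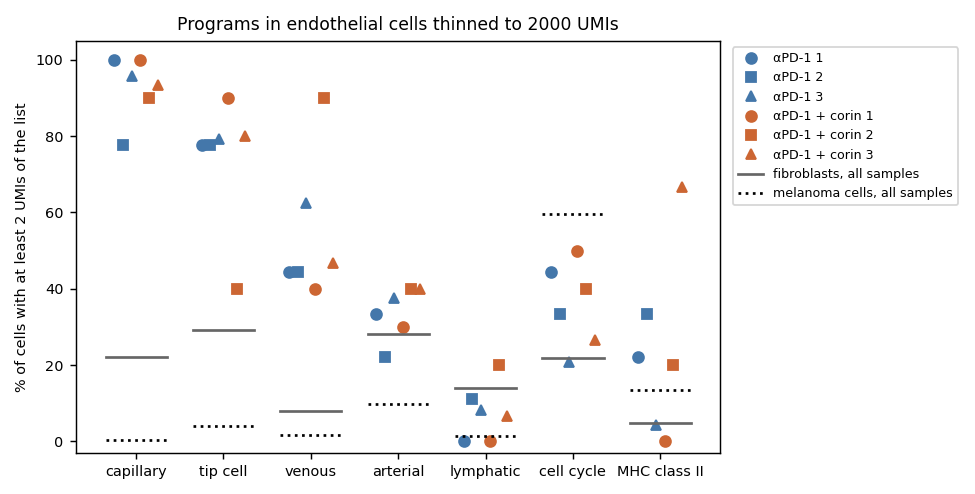
Percent of endothelial cells, each thinned to 2000 UMIs, that hold at least 2 UMIs of a gene list, for the 6 samples (points) and for thinned fibroblasts (grey line) and melanoma cells (dotted line). The capillary list is met by 77.8% to 100% of endothelial cells in every sample, and MHC class II ranges from 0% to 66.7% between samples of the same group.

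Pericyte genes were also present in part of the cells. At least 2 UMIs of Rgs5, Pdgfrb, Cspg4 and Notch3 together were found in 12 cells. These were 0, 4 and 3 cells under αPD-1 alone and 3, 0 and 2 under αPD-1 + corin. They held 100% of the Rgs5 UMIs, a share that the choice by Rgs5 largely fixed. Of the genes that chose them, Notch3 was in 11 cells and Pdgfrb in 9. Among pericyte genes outside that choice, Kcnj8 was in 11, Abcc9 in 10 and Acta2 in 8. The median depth of these 12 cells was 9599 UMIs against 6071 in the other 81 cells. Rgs5, a marker of pericytes, was at 0, 1418 and 354 CPM under αPD-1 alone and at 1013, 0 and 37.9 CPM under αPD-1 + corin. Whether these barcodes held a pericyte beside an endothelial cell was not tested, and the tests of endothelial genes and of differences from other classes were repeated without them, an alternative chosen after seeing the data.

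The share of endothelial cells was compared between treatments over samples. Of all barcodes within the limits, endothelial cells made up 0.180%, 0.193% and 0.453% under αPD-1 alone and 0.231%, 0.174% and 0.225% under αPD-1 + corin. The groups overlapped, and the difference between the means (0.275% ± 0.154 against 0.210% ± 0.0312, n = 3 each) was within the spread (exact permutation test, two-sided, p = 0.8). αPD-1 replicate 3 alone set its direction, since without that sample the αPD-1 + corin mean was higher by 0.0239 percentage points.

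Against the other CD45-negative cells that came through the capture, the share differed more. Among endothelial cells, fibroblasts and melanoma cells together, endothelial cells made up 1.48%, 2.06% and 2.41% under αPD-1 alone and 0.991%, 0.781% and 0.884% under αPD-1 + corin. The groups did not overlap, and the αPD-1 mean was 2.24 times as high (1.98% ± 0.470 against 0.885% ± 0.105, n = 3 each). The exact permutation test gave p = 0.1, the smallest that 3 against 3 samples allow, and 0.2 after adjustment over both shares. edgeR on the cell counts gave a log2 ratio of −1.17 with p = 0.00289. That fit held only the endothelial count and the count of the remaining cells. Its spread was estimated from these complementary counts, so its p cannot be set above the exact test. The Wilson 95% interval, which covers counting error only, was 1.65% to 3.50% in αPD-1 replicate 3, above those of all αPD-1 + corin samples (0.425% to 1.48% at their widest). Those of αPD-1 replicates 1 and 2, which began at 0.804% and 1.09%, overlapped with them. The other members of the denominator differed as well, since fibroblasts made up 1.44%, 1.29% and 1.29% of barcodes under αPD-1 alone and 6.21%, 2.67% and 2.39% under αPD-1 + corin (exact p = 0.1). Melanoma cells made up 7.90% to 17.1% of barcodes under αPD-1 alone and 16.9% to 22.8% under αPD-1 + corin. Fewer endothelial cells and more of the other cells cannot be told apart in such a ratio.

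**Figure D3:**
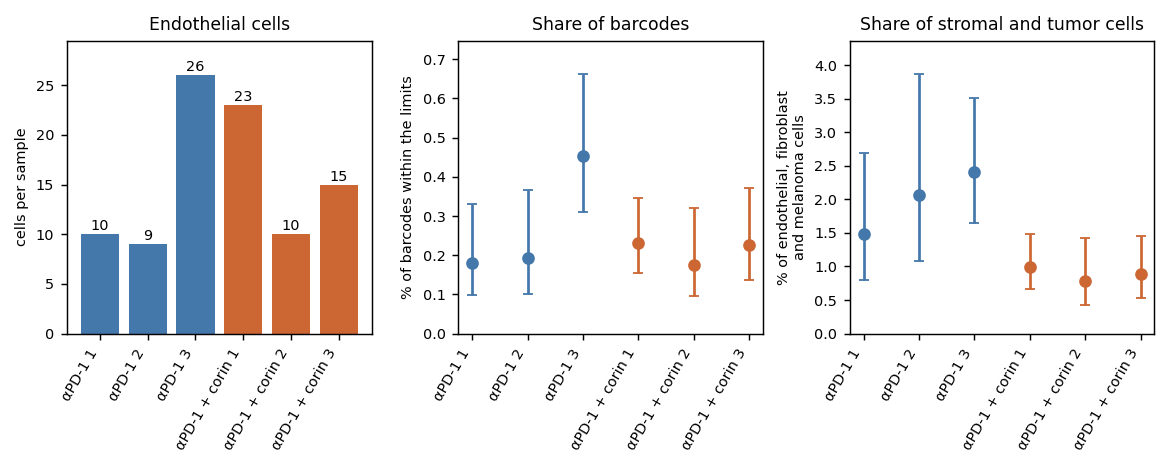
Number of endothelial cells per sample (bars), and their share of all barcodes within the limits and of endothelial, fibroblast and melanoma cells together (points, with Wilson 95% intervals). The second share is 1.48% to 2.41% under αPD-1 alone and 0.781% to 0.991% under αPD-1 + corin, while the first share overlaps between the groups.

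To ask which endothelial genes differed with corin, UMIs were summed over the endothelial cells of each sample and tested with edgeR over 2295 genes, 3 samples against 3. No gene passed an adjusted p of 0.05 in either direction (0.0% of genes tested higher and 0.0% lower, smallest adjusted p = 0.13 by edgeR's quasi-likelihood test). Without adjustment, 235 genes had p under 0.05, 123 higher in αPD-1 + corin (5.36%) and 112 lower (4.88%). DESeq2 also called 0 genes, with 125 at an unadjusted p under 0.05 and a smallest adjusted p of 0.088. Levels were free of overlap between the groups for 395 genes (17.2%), of which 211 were higher (9.19%) and 184 lower (8.02%) in αPD-1 + corin. The median SE of a log2 fold change was 0.35, so only large differences could have been detected with these cells. When the 16 cells with over 4000 genes were left out, 5 genes were called higher (Fabp5, Slc9a3r2, Rps15a, Rplp2 and Rps2) and 6 lower (Jun, Zfpm2 and Zfp521 among them), of 1414 tested. Without the 12 cells with pericyte genes 1 gene, Hsph1, was called lower (edgeR adjusted p = 0.029).

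The genes with the smallest p-values are given as values, since none passed. Hsph1 (chr5:149537636-149560156), a heat shock co-chaperone, had the smallest p. Its level was 365, 187 and 220 CPM under αPD-1 alone and 69.6, 43.2 and 60.6 CPM under αPD-1 + corin. The lowest αPD-1 sample stood above the highest αPD-1 + corin sample (log2 fold change −2.11, SE 0.38, edgeR adjusted p = 0.13). Hsph1 was also lower with corin in the pooled fibroblasts, at 284 against 95.7 CPM, and in the pooled macrophages, at 173 against 59.1 CPM.

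Fabp5 (chr3:10077602-10081674), a fatty acid-binding protein of the same family as Fabp4, was the gene with the smallest p among those higher in αPD-1 + corin. It stood at 336, 374 and 553 CPM under αPD-1 alone and at 959, 1079 and 992 CPM under αPD-1 + corin (421 ± 116 against 1010 ± 61.8 CPM, n = 3 each). The groups did not overlap (log2 fold change 1.22, SE 0.26, edgeR adjusted p = 0.17). With cells thinned to 2000 UMIs, Fabp5 passed the test (log2 fold change 1.80, edgeR adjusted p = 0.036, of 348 genes tested), and it also did without the cells of over 4000 genes (1.92, edgeR adjusted p = 0.046). Over all alternatives the adjusted p ranged from 0.031 to 0.68.

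Cxcl12 (chr6:117144945-117158328), the ligand of CXCR4 and a chemokine of arterial endothelium, was at 163, 66.9 and 108 CPM under αPD-1 alone and at 224, 453 and 348 CPM under αPD-1 + corin. The groups did not overlap (log2 fold change 1.55, SE 0.36, edgeR adjusted p = 0.20). Pooled fibroblasts of the same libraries held Cxcl12 at 241 CPM with αPD-1 and at 654 CPM with αPD-1 + corin, and the part of their RNA in the endothelial value was not tested. Slc9a3r2, a scaffold protein beneath the cell membrane, was at 202, 107 and 151 CPM against 302, 496 and 424 CPM (log2 fold change 1.37, SE 0.31, edgeR adjusted p = 0.19).

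Other genes with small p-values were lower in αPD-1 + corin. Thbs1 (thrombospondin-1, a matrix protein that restrains angiogenesis; chr2:117941974-117957616) was at 384, 374 and 484 CPM under αPD-1 alone and at 201, 64.7 and 152 CPM under αPD-1 + corin. The groups did not overlap (log2 fold change −1.55, SE 0.34, edgeR adjusted p = 0.17). Itpr1, a calcium channel of the endoplasmic reticulum, was at 240, 267 and 264 CPM against 61.9, 86.3 and 114 CPM. Rora, a nuclear receptor, had the largest difference among them, at 86.4, 214 and 117 CPM against 38.7, 10.8 and 15.1 CPM (log2 fold change −2.50, SE 0.56). The zinc finger cofactor Zfpm2 (FOG2) was at 202 to 227 CPM under αPD-1 alone and at 37.9 to 97.1 CPM under αPD-1 + corin.

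**Figure D4:**
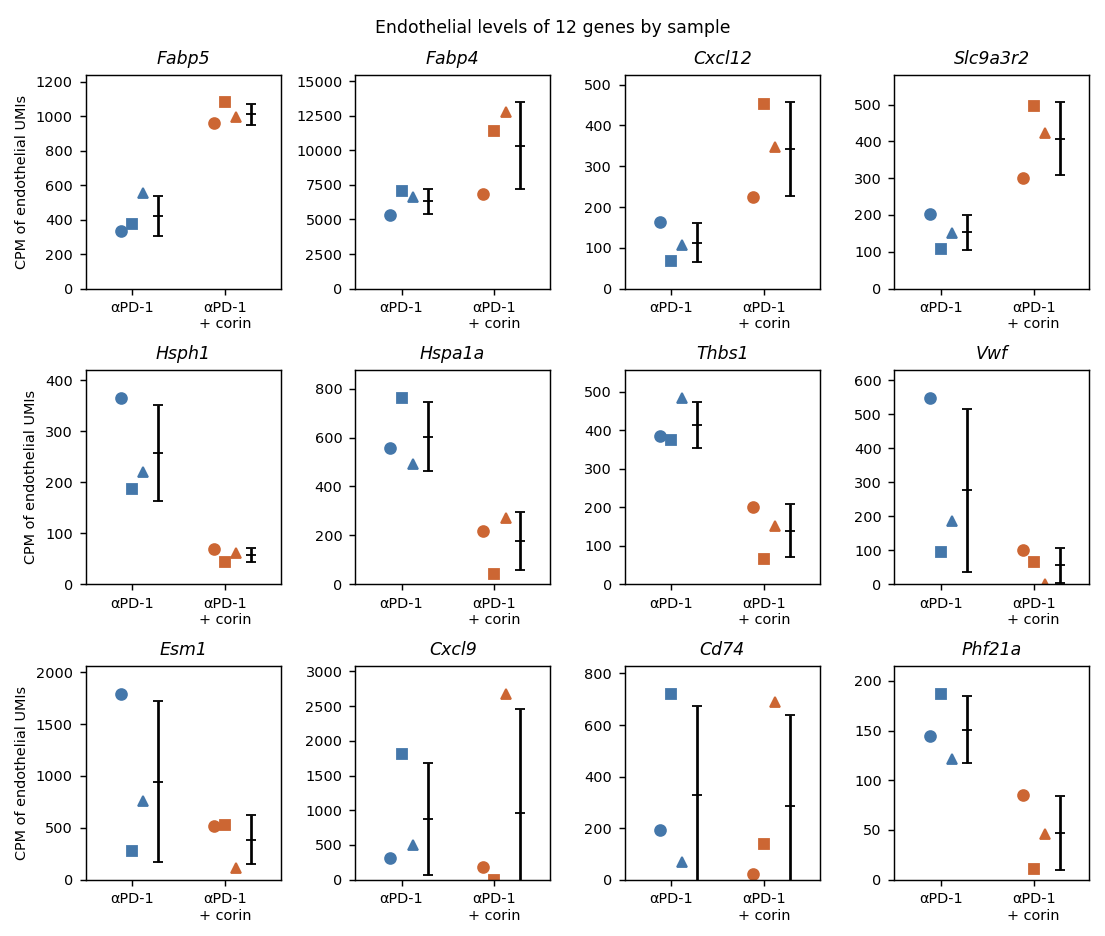
Endothelial levels of 12 genes in CPM by sample, with αPD-1 in blue, αPD-1 + corin in orange, replicates 1 to 3 as circle, square and triangle, and mean ± SD in black (bars that pass below 0 are cut at the axis). Fabp5 is at 336 to 553 CPM in αPD-1 and at 959 to 1079 CPM in αPD-1 + corin, whereas Cxcl9 and Cd74 vary as much within a group as between the groups.

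The VEGF system, by which endothelial cells receive the main signal to sprout, showed no called gene, with 5 members tested, 2 positive and 3 negative, and a median log2 fold change of −0.04, beside 0.00 over all genes tested. Flt1 was at 1690, 1337 and 1798 CPM under αPD-1 alone and at 1408, 1694 and 1628 CPM under αPD-1 + corin (log2 fold change −0.04, SE 0.22). Nrp1, a co-receptor for VEGF, was at 807, 615 and 687 CPM against 565, 539 and 470 CPM, with no overlap (log2 fold change −0.43, edgeR adjusted p = 0.56). Its paralog Nrp2 lay the other way, at 154, 93.6 and 216 CPM against 286, 237 and 250 CPM (log2 fold change 0.63, edgeR adjusted p = 0.54). The ligand Vegfa had UMIs in 2 of the 93 cells.

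Genes of tip cells lay in both directions, and none passed the test. Angpt2, the antagonist of the Tie2 receptor, was at 413, 401 and 333 CPM under αPD-1 alone and at 325, 227 and 182 CPM under αPD-1 + corin (log2 fold change −0.64, SE 0.28, edgeR adjusted p = 0.47). Dll4, the Notch ligand of tip cells, was at 336, 294 and 277 CPM against 186, 183 and 220 CPM (log2 fold change −0.61, SE 0.27, edgeR adjusted p = 0.47). For both the groups did not overlap, and over the alternatives the log2 fold change reached −0.23 for Angpt2 and −0.28 for Dll4. Apln, the ligand of the apelin receptor, had the smallest p of the list and lay the other way, at 125, 227 and 138 CPM against 394, 227 and 227 CPM, with overlap (log2 fold change 0.84, SE 0.33, edgeR adjusted p = 0.43). Of 13 tip cell genes tested, 5 were positive and 8 negative, 3 were lower without overlap (8.02% of all genes tested) and 0 higher (9.19%), with a median of −0.32, but this median was 0.30 when the cells with over 4000 genes were left out. After thinning, the share of cells that met the tip cell list was 77.8%, 77.8% and 79.2% under αPD-1 alone and 90.0%, 40.0% and 80.0% under αPD-1 + corin (exact p = 1).

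Of 4 Notch genes tested, 1 was positive and 3 negative, with a median log2 fold change of −0.29. Notch4, the receptor largely restricted to endothelium, was at 317, 161 and 246 CPM under αPD-1 alone and at 302, 183 and 310 CPM under αPD-1 + corin. Notch1 was at 365, 107 and 225 CPM against 170, 183 and 174 CPM. The share of thinned cells that met the whole Notch list was 76.9% ± 11.2 under αPD-1 alone and 47.2% ± 2.55 under αPD-1 + corin (n = 3 each), with no overlap (exact p = 0.1, the smallest possible). This share was picked out after its values were seen, as were those of the coagulation and leukocyte adhesion lists, which gave the same p. The macrophage list also gave it, met by 0 cells in each αPD-1 sample and by 1 of 20, 2 of 10 and 1 of 15 cells under αPD-1 + corin, and its part in the other results was not tested. These lists were picked out of all lists thinned, and their p was not adjusted over the lists. The summed Notch list overlapped between the groups, at 1747, 1137 and 1370 CPM under αPD-1 alone and at 1222, 1100 and 1288 CPM under αPD-1 + corin. Receptors and targets of TGF-β and BMP had a median log2 fold change of 0.05 over 7 genes, with no gene free of overlap (17.2% of all genes tested).

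Of 7 venous genes tested, 4 were negative and 3 positive, with a median log2 fold change of −0.39, and none passed the test. Nr2f2 (COUP-TFII), the transcription factor of venous identity, was at 202, 254 and 168 CPM under αPD-1 alone and at 101, 108 and 90.9 CPM under αPD-1 + corin. The groups did not overlap (log2 fold change −1.02, SE 0.32, edgeR adjusted p = 0.33). Vwf (von Willebrand factor) was at 547, 93.6 and 186 CPM against 101, 64.7 and 0 CPM, which overlapped (log2 fold change −2.33, SE 0.70, edgeR adjusted p = 0.33). Selp (P-selectin) was at 202, 26.7 and 380 CPM against 186, 227 and 15.1 CPM. The share of thinned cells that met the venous list was 44.4%, 44.4% and 62.5% against 40.0%, 90.0% and 46.7% (exact p = 0.8).

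All 8 capillary genes tested overlapped between the groups except Meox2, where 8.02% of all genes tested were lower without overlap. Meox2, a homeobox factor, was at 134, 160 and 130 CPM under αPD-1 alone and 30.9, 108 and 83.3 CPM under αPD-1 + corin (log2 fold change −0.95, edgeR adjusted p = 0.46). The values of Fabp4 given above amounted to a log2 difference of 0.71, with an SE of 0.29 and an adjusted p of 0.45 by edgeR. Gpihbp1, which carries lipoprotein lipase to the capillary surface, was at 903, 1284 and 921 CPM against 882, 1413 and 1341 CPM.

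Genes of the vessel wall overlapped between the groups. In the basement membrane list, 13 genes were tested and none was free of overlap (17.2% of all genes tested), with a median log2 fold change of 0.01. Sparc, a matrix glycoprotein, was at 7537, 5215 and 5493 CPM under αPD-1 alone and at 7047, 5987 and 4900 CPM under αPD-1 + corin. Col4a1, a chain of type IV collagen, had UMIs in all 93 cells, at 3591, 3410 and 3890 CPM against 4270, 3139 and 3461 CPM. The log2 fold change of Col4a1 was −0.01 with an SE of 0.23. Fn1 (fibronectin) was at 67.2, 66.9 and 207 CPM against 689, 129 and 189 CPM, and 41.4% of its UMIs came from 1 cell.

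Junction genes numbered 8 tested, 4 positive and 4 negative, and those of caveolae and fenestrae 8 tested, 6 positive and 2 negative. Tjp1 (ZO-1), which ties tight junctions to actin, was at 384, 348 and 389 CPM under αPD-1 alone and at 279, 281 and 303 CPM under αPD-1 + corin, with no overlap (log2 fold change −0.39, edgeR adjusted p = 0.64). Cldn5, the main claudin of endothelium, was at 57.6, 548 and 168 CPM against 131, 194 and 235 CPM. Cav1 (caveolin-1) was at 394, 990 and 488 CPM against 688, 626 and 485 CPM. Ehd4, a membrane-shaping ATPase, was at 442, 321 and 462 CPM against 689, 486 and 553 CPM (log2 fold change 0.47, edgeR adjusted p = 0.56).

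Inducible genes by which leukocytes attach were detected in part of the cells. Icam1 was found in 34 cells, Vcam1 in 17 and Sele (E-selectin) in 7. Of 8 adhesion genes tested, 5 were positive and 3 negative, with a median log2 fold change of 0.08. None was free of overlap (17.2% of all genes tested). Icam2, a constitutive adhesion molecule, was at 355, 281 and 264 CPM under αPD-1 alone and at 286, 367 and 280 CPM under αPD-1 + corin. Nfkb1, a subunit of NF-κB, was at 240, 201 and 195 CPM against 101, 86.3 and 114 CPM (log2 fold change −1.05, SE 0.31, edgeR adjusted p = 0.33). Nfkbia, its inhibitor and target, was at 451, 414 and 475 CPM against 356, 302 and 386 CPM (log2 fold change −0.37, edgeR adjusted p = 0.64). Both were free of overlap, of 3 genes of their list tested, where 8.02% of all genes tested were lower without overlap. The summed list of 16 NF-κB targets was free of overlap as well, at 1287, 1150 and 1098 CPM against 859, 820 and 924 CPM. Nfkbia and Nfkb1 were its members with the highest levels. The share of thinned cells that met this list overlapped, at 66.7%, 77.8% and 33.3% against 35.0%, 40.0% and 66.7% (exact permutation test, p = 0.7).

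Interferon-induced genes varied widely between samples of the same treatment. Cxcl9, a ligand of CXCR3 induced by interferon-γ, was at 317, 1805 and 497 CPM under αPD-1 alone and at 186, 0 and 2681 CPM under αPD-1 + corin. αPD-1 replicate 2 and αPD-1 + corin replicate 3 were thus high, and the fold change had no precision (log2 fold change 0.24, SE 0.98). The same samples were high in Ubd (FAT10, a ubiquitin-like modifier), at 134, 843 and 151 CPM against 0, 0 and 1151 CPM, and in Cd74, the invariant chain of MHC class II, at 192, 722 and 69.2 CPM against 23.2, 140 and 689 CPM. They were high too in H2-K1, a classical MHC class I gene, at 1210, 2206 and 1409 CPM against 936, 1316 and 2514 CPM. The summed interferon-stimulated list was at 5348, 12329 and 7118 CPM against 5222, 8436 and 11732 CPM, and its 19 tested genes had a median log2 fold change of −0.11. The same samples were highest in their groups for this list in fibroblasts, at 4048, 5486 and 3707 CPM against 6023, 6736 and 8179 CPM. In melanoma cells they were so too, at 1963, 2126 and 1161 CPM against 720, 1729 and 3822 CPM. MHC class II sums in melanoma cells were 271, 531 and 94.2 CPM against 51.55, 167 and 1633 CPM. In fibroblasts those sums did not follow, at 92.6, 81.1 and 94.85 CPM against 250, 130 and 132 CPM. αPD-1 replicate 2 was also the sample with the highest mitochondrial share, and αPD-1 + corin replicate 3 the one with the Lyz2 cell, and the part of either was not tested.

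Cells with and without Cxcl9 were then set side by side. After thinning, 24 cells held a Cxcl9 UMI (3, 4 and 7 under αPD-1 alone, 1, 0 and 9 under αPD-1 + corin). They held a mean of 1.62 Iigp1 UMIs against 0.318 in the 63 cells without Cxcl9, of Gbp2 0.875 against 0.159 and of Cd74 1.33 against 0.254. B2m, the common light chain of MHC class I, was at 12.6 against 6.67 UMIs per cell. These means pool cells over samples, and 13 of the 24 cells came from the 2 high samples. Within the 5 samples that held both kinds of cell, the cells with Cxcl9 had the higher mean in 5 for Gbp2 and B2m, in 4 for Iigp1 and in 3 for Cd74. Cd74 was found in 10 of the 24 cells and in 10 of the 63 others, and in 5.43% of thinned fibroblasts and 15.2% of thinned melanoma cells. Cxcl9 itself was found in 19.7% of thinned fibroblasts against 27.6% of endothelial cells. MHC class II genes were met by 22.2%, 33.3% and 4.17% of endothelial cells under αPD-1 alone and by 0%, 20.0% and 66.7% under αPD-1 + corin (exact p = 0.9), so the widest gap lay within the αPD-1 + corin group.

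Cxcl10, a further CXCR3 ligand, was lower without overlap in αPD-1 + corin, at 154, 187 and 571 CPM against 92.8, 53.9 and 129 CPM (log2 fold change −1.80, SE 0.50, edgeR adjusted p = 0.30). However, 47.5% of its UMIs came from 1 cell, and without αPD-1 replicate 3 the log2 fold change was −0.82. Kitl, the ligand of KIT, was found in 66 cells at 374, 321 and 622 CPM against 248, 345 and 454 CPM. Among MHC class I genes, 17 were tested, 8 positive and 9 negative, and none was free of overlap (17.2% of all genes tested). Cd274 (PD-L1) had UMIs in 14 cells.

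A list of genes induced by tissue dissociation and heat shock was summarised as a check on handling. All 18 genes were tested, 16 were negative and 2 positive, with a median log2 fold change of −0.30 beside 0.00 over all genes tested. For 6 of them (Jun, Hspa1a, Hspa1b, Dnajb1, Zfp36 and Nr4a1) the groups did not overlap, all lower in αPD-1 + corin, where 8.02% of all genes tested were lower without overlap. Jun, a subunit of AP-1, was at 1056, 1444 and 756 CPM under αPD-1 alone and at 557, 486 and 591 CPM under αPD-1 + corin (log2 fold change −0.97, SE 0.27, edgeR adjusted p = 0.30). Hspa1a (an inducible HSP70, nearly identical to Hspa1b, so the split of reads between both is uncertain) was at 557, 762 and 493 CPM against 217, 43.2 and 273 CPM (log2 fold change −1.69, SE 0.42, edgeR adjusted p = 0.23). The summed list was at 7700, 9414 and 7619 CPM against 6126, 5060 and 5961 CPM. It overlapped between the groups in fibroblasts, at 13269, 10465 and 8415 CPM against 8108, 8263 and 11216 CPM, and in melanoma cells. Most genes were negative there too, 14 of 18 in fibroblasts (median −0.16) and 15 of 18 in melanoma cells (median −0.10). In pooled immune classes the sum was lower with corin in T cells, at 13940 against 11300 CPM, and in B cells, at 21584 against 13214 CPM. The sum was higher in macrophages, at 9568 against 9842 CPM, and in neutrophils, at 12136 against 18075 CPM.

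Ribosomal protein genes, a group chosen after its values were seen, lay almost all in the same direction. Of 77 tested, 76 were positive in αPD-1 + corin, 56 were higher without overlap, against 9.19% of all genes tested, and the median log2 fold change was 0.51. None passed the adjusted test. Their sum was at 70501, 67062 and 78548 CPM under αPD-1 alone and at 103756, 112401 and 94582 CPM under αPD-1 + corin. The sum also differed in fibroblasts, at 65075, 84557 and 81247 CPM against 113501, 105482 and 71515 CPM, where the groups overlapped, and in melanoma cells, at 123402, 130724 and 127168 CPM against 138559, 133604 and 138294 CPM, where they did not. Among pooled immune classes the sum was higher with corin in neutrophils, at 17054 CPM with αPD-1 and 60108 CPM with αPD-1 + corin. It was lower in macrophages, at 89869 against 85399 CPM, in T cells, at 173928 against 162271 CPM, and in B cells, at 150577 against 139092 CPM. Reads of ribosomal pseudogenes cannot be told apart from those of their parent genes in such counts.

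**Figure D5:**
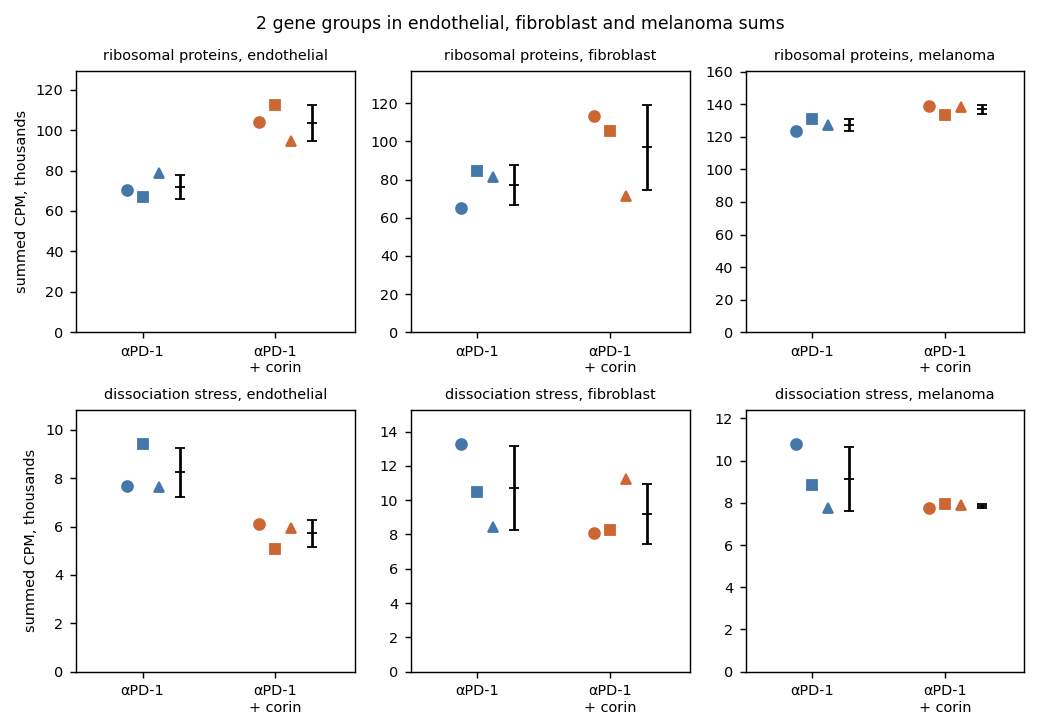
Summed CPM, in units of 1000, of 77 ribosomal protein genes (top) and of 18 dissociation stress genes (bottom) per sample in endothelial cells, fibroblasts and melanoma cells, with αPD-1 in blue, αPD-1 + corin in orange, replicates as circle, square and triangle, and mean ± SD in black. In endothelial cells the ribosomal sums are 67062 to 78548 CPM in αPD-1 and 94582 to 112401 CPM in αPD-1 + corin.

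Genes of hypoxia and glycolysis lay in the same direction, with 12 of 13 tested positive, beside 1156 of 2295 over all genes tested, and a median log2 fold change of 0.29. For 4 of them (Pgk1, Ldha, Gapdh and Ndrg1) the groups did not overlap, where 9.19% of all genes tested were higher without overlap. Ldha, which converts pyruvate to lactate, was at 259, 308 and 328 CPM under αPD-1 alone and at 565, 680 and 386 CPM under αPD-1 + corin (log2 fold change 0.83, SE 0.28, edgeR adjusted p = 0.33). Gapdh was at 384, 361 and 428 CPM against 781, 604 and 500 CPM (log2 fold change 0.66, SE 0.25, edgeR adjusted p = 0.41). The summed list overlapped between the groups, at 2208, 2835 and 3008 CPM against 4324, 3301 and 2916 CPM. In fibroblasts 23 of 23 genes were positive with a median of 0.51. Their sums overlapped as well, at 4753, 4636 and 3819 CPM against 7373, 7505 and 3537 CPM. Melanoma cells did not share the direction, with 19 of 23 genes negative and a median of −0.18.

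Members of the CoREST complex, the target of corin, were detected at low levels and 6 could be tested, 2 positive and 4 negative, with a median log2 fold change of −0.11. Kdm1a (LSD1) was at 125, 120 and 82.1 CPM under αPD-1 alone and at 170, 140 and 60.6 CPM under αPD-1 + corin, with overlap (log2 fold change 0.23, SE 0.39, edgeR adjusted p = 0.87). Hdac1 was at 86.4, 147 and 73.5 CPM against 139, 140 and 75.7 CPM (log2 fold change 0.30, SE 0.39). Rcor1, the scaffold of the complex, was at 86.4, 107 and 69.2 CPM against 101, 53.9 and 68.2 CPM. In 1 of these 6, Phf21a (BHC80), a subunit that reads unmethylated histone H3, the groups did not overlap, beside 17.2% of all genes tested. Phf21a was at 144, 187 and 121 CPM against 85.1, 10.8 and 45.4 CPM (log2 fold change −1.50, SE 0.46, edgeR adjusted p = 0.33). Hmg20b and Gse1 had log2 fold changes of −0.11 and −0.11, with SEs of 0.46 and 0.48. Hdac2, too low to be tested, was higher without overlap in αPD-1 + corin, at 28.8, 40.1 and 34.6 CPM against 77.4, 53.9 and 45.4 CPM. Rcor3, Zmym2 and Zmym3 had UMIs in 13, 23 and 10 cells and Rcor2 in 1 cell, so their differences were not detectable at this depth.

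To find treatment differences that endothelial cells did not share with other CD45-negative cells, the interaction of cell class and treatment was tested with the sample as a block. Against fibroblasts, 8311 genes were tested, and 2 were called more positive in endothelial cells (0.0241%) and 2 more negative (0.0241%). Rflnb (refilin B, an actin-binding protein; chr11:75910007-75918628) was at 125, 66.9 and 151 CPM in endothelial cells of the αPD-1 samples and at 271, 151 and 197 CPM in those of the αPD-1 + corin samples. In fibroblasts it was at 64.8, 53.7 and 67.0 CPM against 15.1, 11.3 and 17.2 CPM. The log2 fold change was 0.75 in endothelial cells, where the groups overlapped, and −2.04 in fibroblasts (edgeR adjusted p = 0.0037), so most of the difference lay in fibroblasts. The difference of the log2 fold changes was 2.85 (SE 0.43, edgeR adjusted p = 0.010). It was called in 11 of 11 settings, including each fit with 1 sample left out and the one without pericyte-gene cells.

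Fabp5 differed in the same direction. In fibroblasts it was at 301, 63.9 and 398 CPM under αPD-1 alone and at 56.5, 123 and 60.8 CPM under αPD-1 + corin, which overlap, so the difference of the log2 fold changes was 2.75 (SE 0.48, edgeR adjusted p = 0.037, called in 7 of 11 settings). Pan-endothelial genes in the pooled fibroblasts lay in both directions. Outside the rule, 11 of 25 were higher in fibroblasts of the αPD-1 samples and 13 lower, with sums of 472 and 496 CPM. Single genes moved these sums in opposite ways, with Cd34 at 77.3 against 200 CPM and Flt1 at 110 against 33.3 CPM. The capillary gene Fabp4 was at 495 against 125 CPM and the tip cell gene Igfbp3 at 385 against 56.7 CPM. The part of such RNA in the Fabp5 difference was not tested. Nos2 (inducible nitric oxide synthase) and Aqp1 (a water channel) were more negative in endothelial cells, with differences of −4.73 and −2.65 (edgeR adjusted p = 0.037 for both). Both were higher with corin in fibroblasts, with log2 fold changes of 3.21 (edgeR adjusted p = 0.015) and 2.32 (edgeR adjusted p = 0.0080). In endothelial cells the log2 fold change of Aqp1 was −0.35, with overlap, and Nos2 was too low to be tested. Without the cells with pericyte genes, 7 genes were called more positive and 5 more negative, and Aqp1 was not called (−1.99, edgeR adjusted p = 0.19).

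Against melanoma cells, 12821 genes were tested, and 3 were called more positive (0.0234%) and 26 more negative (0.203%) in endothelial cells. For 14 of the 29 the mean level in melanoma cells was under 10 CPM, so their fold changes there rest on low levels. Fabp5 was again more positive, since in melanoma cells it was at 812, 779 and 679 CPM under αPD-1 alone and at 551, 614 and 676 CPM under αPD-1 + corin. The difference of the log2 fold changes was 1.46 (SE 0.28, edgeR adjusted p = 0.00042, called in 10 of 11 settings). Thbs1 was more negative, with a difference of −2.46 (edgeR adjusted p = 1.2e-06, called in 11 of 11 settings), although melanoma cells held it at only 3.55 to 9.76 CPM. Without the cells with pericyte genes, 1 gene was called more positive, Fabp5, and 20 more negative.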

How the data were processed

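Single-cell 5' gene expression libraries of CD45+ cells from 6 tumor samples were deposited as UMI counts per gene and barcode. Per the labels, the authors used Cell Ranger 8.0 and Seurat 5.0.11 with the GRCm39 genome, and the deposited counts are raw and filtered to called cells. Coordinates are from GENCODE vM39 (31674 of 32285 gene identifiers matched). The cells were chosen by the stated rule, which uses 12 genes. The cells, gene lists and tests were chosen with earlier results of these data known.

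UMI counts were summed over the endothelial cells of each sample and entered edgeR 4.0.16's quasi-likelihood test (R 4.3.3; TMM, filterByExpr, Benjamini-Hochberg, threshold 0.05), with DESeq2 1.42.0 as an alternative. Of 2298 genes fitted, 2295 outside the rule are reported. A log2 fold change is αPD-1 + corin against αPD-1, and CPM is per 1000000 endothelial UMIs, without scaling for length. Shares were compared over samples by two-sided exact permutation tests (scipy 1.17.1), which with 3 against 3 samples cannot give p under 0.1. Wilson 95% intervals and limits for 0 cells (3 counts) cover counting error only. Cells were thinned to 2000 UMIs at random for shares of cells. Scripts were tested on simulated data. Replicate numbers are shared by the groups and entered only an alternative fit.

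Genes named were, by rule, up to 8 called each way with no overlap, 50 CPM or more where higher and at least 20% of the level of every other class, from each list the 2 highest and the 2 with the smallest p, the CoREST members, and up to 3 called interactions each way. Since no gene was called, the genes of smallest p are named as well, and these and other genes named beyond the rule were chosen after their values were seen. The settings varied were the filters on genes, mitochondrial share, rule UMIs, Ptprc, doublets, cells with immune, pericyte or lymphatic genes, thinning, equal cells per sample, size factors, low counts, the replicate block and each sample left out. Values of a few genes are not reported here.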

Additional observations from a re-analysis of the deposited data

Results flagged for a closer look

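The tests of a difference in treatment effect between endothelial cells and another cell class singled out 4 genes against fibroblasts and 7 results against melanoma cells among those named. Each value is the log2 fold change in endothelial cells minus that in the other class, from edgeR's quasi-likelihood test over all genes with the sample as a block.

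Against fibroblasts, the difference was 2.85 for Rflnb (edgeR adjusted p = 0.010, called in 11 of 11 settings) and 2.75 for Fabp5 (adjusted p = 0.037, called in 7 of 11). For Nos2 it was −4.73 (adjusted p = 0.037, called in 7 of 11), with endothelial levels of 28.8, 53.5 and 38.9 CPM in the αPD-1 samples and 7.74, 21.6 and 22.7 CPM in the αPD-1 + corin samples, and fibroblast levels of 35.9, 19.3 and 2.53 CPM against 148, 230 and 146 CPM. In endothelial cells Nos2 was found in 15 cells. For Aqp1 it was −2.65 (adjusted p = 0.037, called in 5 of 11), with endothelial levels of 739, 735 and 661 CPM against 657, 712 and 333 CPM and pooled fibroblast levels of 5.30 against 25.4 CPM.

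Against melanoma cells, the difference was −2.46 for Thbs1 (adjusted p = 1.2e-06, called in 11 of 11 settings), 1.46 for Fabp5 (adjusted p = 0.00042, called in 10 of 11) and −3.07 for Tmx4, a thioredoxin-related membrane protein (adjusted p = 0.0013, called in 10 of 11). Tmx4 was at 28.8, 93.6 and 190 CPM in endothelial cells of the αPD-1 samples and at 23.2, 0 and 15.2 CPM in those of the αPD-1 + corin samples, in 16 cells. For Dimt1, an rRNA methyltransferase, the difference was 3.70 (adjusted p = 0.017, called in 5 of 10, and not without the cells with pericyte genes), with endothelial levels of 0, 0 and 8.64 CPM against 46.4, 64.7 and 83.3 CPM. For Pcdh7, a protocadherin, it was −3.64 (adjusted p = 0.013, called in 5 of 11), with endothelial levels of 106, 40.1 and 56.2 CPM against 0, 0 and 15.2 CPM. For Fn1 it was 1.51 (adjusted p = 0.017, called in 6 of 11), and it was not called without the cells with pericyte genes nor without αPD-1 + corin replicate 1, which held the highest level, at 0.54 (adjusted p = 1). For Chga it was −7.38 with an SE of 7.35 (adjusted p = 0.034, called in 4 of 11), resting on 4 cells of which 1 held 63.8% of the UMIs.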

How the results depend on the processing

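Of 710 comparisons of 35 named genes under other settings, 678 kept direction and side of the threshold, 22 passed it and 10 changed sign. Genes called higher in αPD-1 + corin numbered 5 with at most 4000 genes per cell, 1 with cells thinned to 2000 UMIs and 9 without the filter on low counts, against 0. Genes called lower numbered 6 with at most 4000 genes, 1 at 5% mitochondrial UMIs, 1 without pericyte-gene cells and 21 without the filter. Leaving out each sample gave 0 calls both ways. The replicate block gave 0 calls (176 unadjusted, smallest edgeR adjusted p = 0.38). Same-numbered samples did not deviate together (r = 0.0016, −0.152 and −0.0703), so the numbers were not taken as pairs. The causes were not tested.

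The difference in the share of barcodes ranged from −0.113 to 0.0239 points when 1 sample was left out, and edgeR gave −1.17 (log2) for the share of stromal and tumor cells. With 1 sample left out, the difference between the treatments ranged from −18.2 to 6.76 points for the tip cell share, from −7.13 to 17.9 for the venous, from −3.47 to 7.64 for the capillary and from −3.15 to 6.85 for the lymphatic share, and from −1875 to 151 for median UMIs and from −520 to 59.6 for median genes. The tip and venous directions turned without αPD-1 + corin replicate 2, the capillary one without αPD-1 replicate 2, and the depth ones without αPD-1 + corin replicate 1. At 4 UMIs of the list it was 3.33 for tip, −13.8 for venous and −1.76 for lymphatic cells, and at 1000 UMIs −5.72 for venous and −1.49 for lymphatic cells.

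Interactions with fibroblasts more positive in endothelial cells numbered 15 without the filter, 1 with at most 4000 genes, 7 without pericyte-gene cells and 1 to 7 with 1 sample left out, and those more negative 15, 0, 5 and 0 to 5. αPD-1 replicate 3 left 1 and 0 of them when left out. More positive than in melanoma cells was 1 gene without pericyte-gene cells, and more negative were 13 genes without the filter, 5 with at most 4000 genes and 9 to 32 with 1 sample left out. Log2 fold changes of opposite sign were 0.42 for Esm1 at 4000 genes, 0.022 for Gse1 with the replicate block and 0.081 for Hmg20b with 1 Ptprc UMI allowed. With 1 sample left out, the value ranged from −0.45 to 0.65 for Gse1, from −0.12 to 0.55 for Kdm1a, from −0.34 to 0.034 for Rcor1 and from −0.41 to 0.44 for Hmg20b.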

Other observations

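Stress and arrest genes outside the lists given above were mostly at low levels. Btg2, an antiproliferative immediate-early gene, was at 154, 227 and 117 CPM in the αPD-1 samples and at 54.2, 75.5 and 98.5 CPM in the αPD-1 + corin samples, with no overlap (log2 fold change −1.01, SE 0.39, edgeR adjusted p = 0.41). Mdm2, too low to be tested, was at 67.2, 66.9 and 64.8 CPM against 23.2, 0 and 45.4 CPM. Cdkn1a (p21) overlapped, at 67.2, 227 and 259 CPM against 271, 32.4 and 167 CPM.

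Of the flow-responsive genes, Klf2 was at 211, 241 and 160 CPM in the αPD-1 samples and at 162, 334 and 227 CPM in the αPD-1 + corin samples (log2 fold change 0.26, SE 0.33). Thbd (thrombomodulin, which turns thrombin towards anticoagulation) was too low to be tested, at 19.2, 0 and 38.9 CPM against 54.2, 194 and 98.5 CPM, without overlap, and Tfpi, an inhibitor of tissue factor, was at 38.4, 13.4 and 43.2 CPM against 54.2, 75.5 and 60.6 CPM. Galectin-1 (Lgals1) was at 144, 348 and 419 CPM against 727, 270 and 515 CPM, and galectin-9 (Lgals9) at 250, 428 and 346 CPM against 449, 464 and 401 CPM, with overlap in both.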
